A study of Mus musculus with 7 samples.

Results

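Expression of 45 DNA repair and checkpoint genes was compared between kidneys of BPS-TA and WT mice. Members were taken by gene symbol from the table of values per kidney, which holds 22053 entries, and each was placed in 1 of 8 repair pathways. A value was found for 44 members, and Fanca was not analysed here. Of these 44, 36 reached 1 FPKM (fragments per kilobase of transcript per unit of mapped library, a level per transcript length) in at least 3 kidneys and were tested together with all 12036 genes that did so. The other 8 (Brca1, Bard1, Palb2, Rad54l, Blm, Fancd2, Fanci and Chek1) were under this limit. Ung passed it through 3 BPS-TA kidneys alone.

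Total RNA of kidney cortex was sequenced of C57BL/6 mice on regular chow, from 4 BPS-TA kidneys (TC-7 and TC-8, then TC-11 and TC-12) and 3 WT kidneys (WT-5 to WT-7), and values per kidney keep this order throughout. BPS-TA mice were biallelic for each of their transgenes. GGT-TTA is a tet-off transactivator and GGT-HIF1A_M3 (the TRACK allele) a constitutively active mutant HIF1A, both under a truncated promoter of Ggt1, which is active in the proximal tubule. BPS-TRE-CAS9n, inserted at Col1a1 in 1 clonal embryonic stem cell line, carries paired guides against Bap1, Pbrm1 and Setd2 and a Cas9 nickase that is switched on by the transactivator when doxycycline is absent. WT kidneys carry none of these alleles, so the nickase, its guides, the transactivator and the mutant HIF1A cannot be told apart in this comparison. Age at harvest is labelled with the number 10 followed by both months and weeks, and which mouse gave which kidney is not stated, so p-values measure the spread between these kidneys only. In cortex of mixed cells, fewer cells of a type and less RNA per cell cannot be told apart.

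A Cas9 nickase cuts 1 strand of DNA, and nicks placed close together on opposite strands give a double-strand break. Single-strand breaks and damaged bases are handled by base excision and single-strand break repair, mismatches by mismatch repair, and bulky lesions by nucleotide excision repair. Double-strand breaks are joined directly by non-homologous end joining, or copied from a sister chromatid by homologous recombination, which is largely limited to cells that replicate their DNA. The kinases ATM and ATR signal breaks and exposed single-stranded DNA to the cell cycle. Most cells of an adult kidney are not dividing, and several recombination and Fanconi anaemia genes are transcribed mainly in cycling cells.

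Of the 36 tested members, 7 were higher in BPS-TA kidneys (Apex1, Pms2, Xrcc3, Atr, Xpc, Parp2 and Parp1) and 1 was lower (Rad51c) at an adjusted p under 0.05 (limma on log2(FPKM + 1), adjusted over all tested genes). That is 22.2% of the members, against 35.0% of all tested genes (28.5% higher and 6.56% lower). With 36 members and no matching for level, this difference cannot be read as a trait of the members. The log2 fold changes (BPS-TA over WT) ran from -0.38 to 0.58 with a median of 0.15, against a median of 0.12 for all tested genes, and no member reached 1, as 285 called genes did. Groups of kidneys did not overlap for 10 tested members, 9 higher and 1 lower, against 43.9% of all tested genes (35.0% higher and 8.87% lower). Of 36 log2 fold changes 33 were positive, against 8556 of the 12036 tested genes, whose median was also positive. Quantile normalization, which gives every kidney the same distribution, turned 21 of the 33 negative, and centring each kidney on its median turned 17 negative.

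**Figure D1:**
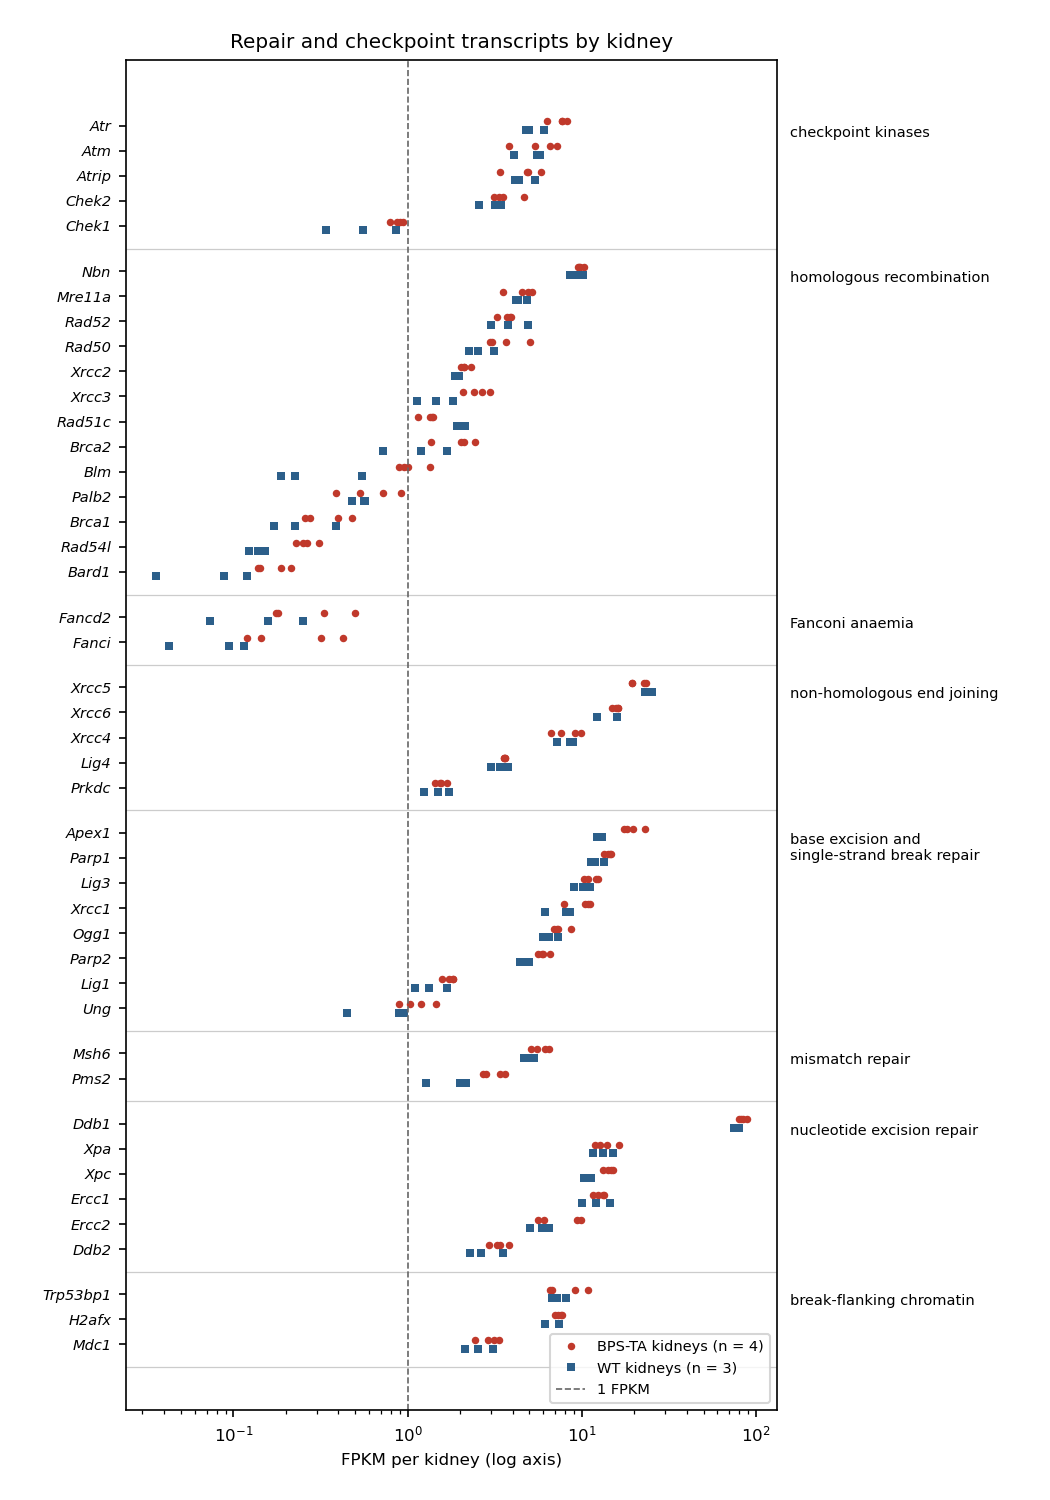
FPKM of the 44 members with a value (horizontal log axis) in 4 BPS-TA kidneys (circles) and 3 WT kidneys (squares), 1 point per kidney, grouped by pathway and ordered by level, with a dashed line at 1 FPKM. Levels run from Ddb1, at 79.6 to 89.2 FPKM in BPS-TA and 74.6 to 79.3 FPKM in WT kidneys, down to Bard1, below 0.22 FPKM in every kidney.

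Ddb1, which encodes the adaptor of a ubiquitin ligase that serves nucleotide excision repair and other pathways, was the most abundant member per transcript length, with 83.7 ± 4.05 FPKM in BPS-TA kidneys (SD, n = 4) and 77.2 ± 2.38 FPKM in WT kidneys (SD, n = 3). Xrcc5, Apex1, Xrcc6, Parp1 and Xpc came next in BPS-TA kidneys, with averages between 14.2 and 21.2 FPKM, and held between 10.8 and 24.2 FPKM in WT kidneys. The median member averaged 4.11 FPKM in BPS-TA kidneys and 4.16 FPKM in WT kidneys, a median that can fall on different genes in each group. A BPS-TA kidney held the highest value for 38 of the 44 members, and a WT kidney the lowest for 36. Of these lowest values, 18 were in WT-7, 12 in WT-5 and 6 in WT-6. Such counts were not made for all genes, of which 8556 of 12036 tested had a positive log2 fold change. They cannot be read as a trait of the members. The spread between kidneys was wider for the tested members than for genes at large, with a median coefficient of variation of 10.7% in BPS-TA and 12.9% in WT kidneys, against 8.59% and 7.20% for all tested genes. Genes were not matched for level here, so the part of level in this difference was not tested.

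**Figure D2:**
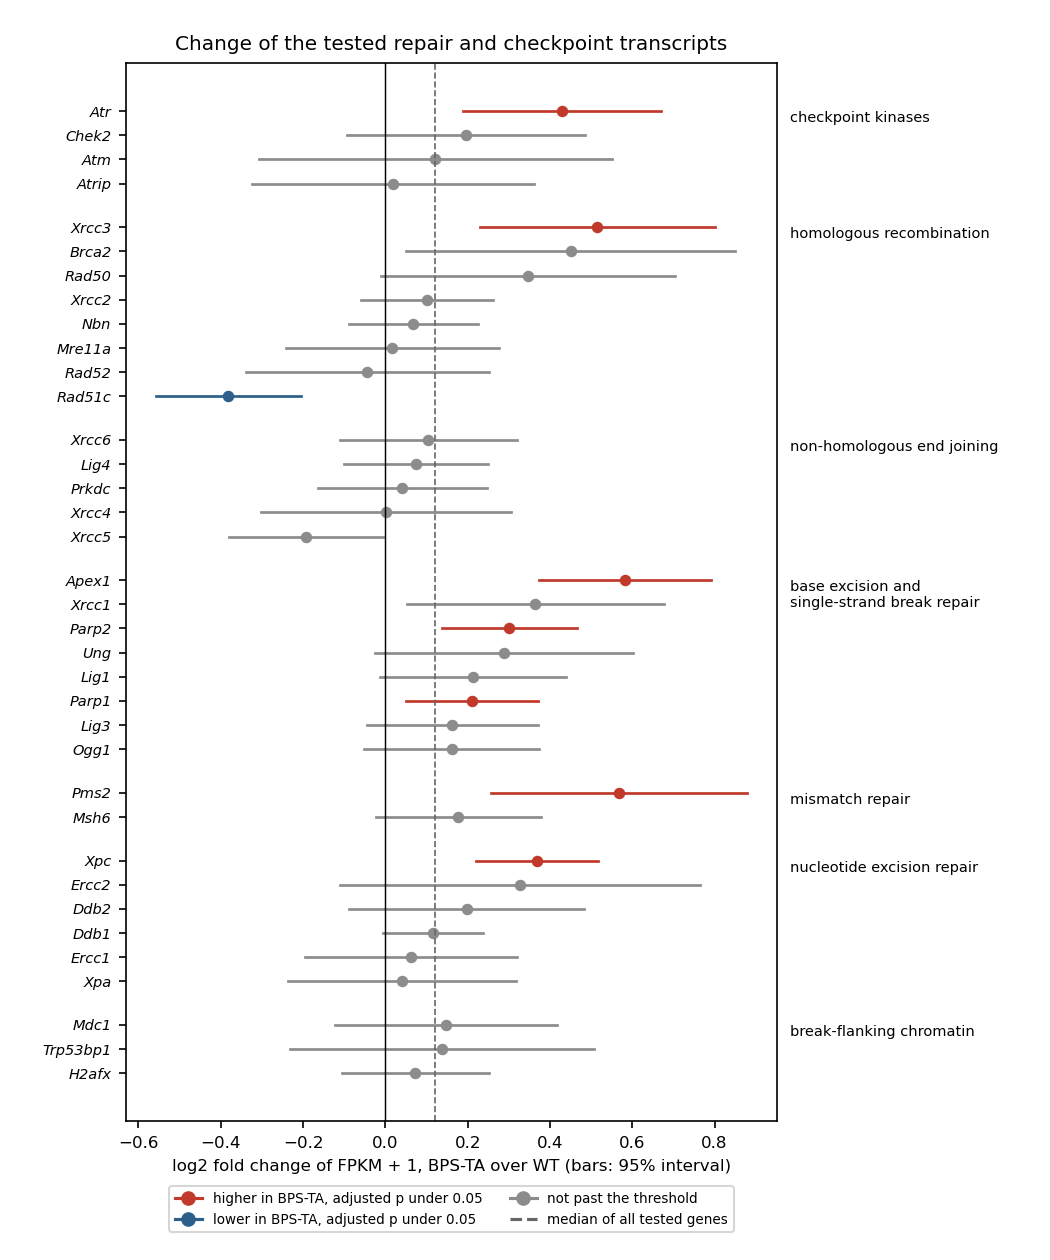
Log2 fold change of FPKM + 1 (BPS-TA over WT, horizontal axis) of the 36 tested members, with 95% intervals as bars and red or blue marking an adjusted p under 0.05. The dashed line is the median of all tested genes, 0.12. Apex1 (0.58) lies farthest to the right and Rad51c (-0.38) farthest to the left.

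Of 8 tested members of base excision and single-strand break repair, 3 were called higher, a share of 37.5% that is near the 35.0% called among all tested genes. As deposited all 8 log2 fold changes were positive (median 0.25), but after quantile normalization 4 of them (Lig1, Lig3, Ogg1 and Ung) were negative (median 0.025), and by quantiles or by centring Apex1 was the only one called. Apex1 (ENSMUSG00000035960) encodes the endonuclease that cuts DNA at sites which have lost a base. It stood at 19.6, 22.9, 18.1 and 17.5 FPKM in BPS-TA kidneys, against 12.3, 13.1 and 12.6 FPKM in WT kidneys. Every BPS-TA kidney was above every WT kidney, and the log2 fold change was 0.58 ± 0.091 (SE, adjusted p = 0.00248, limma). On this scale it was the largest log2 fold change among the tested members, but with a pseudocount of 0.1 FPKM those of Pms2 (0.79), Xrcc3 (0.75) and Brca2 (0.72) were larger than that of Apex1 (0.61). In the GENCODE M21 annotation, 61.7% of the exonic bases of Apex1 (877 bases) lie opposite exons of Tmem55b, at 40.6 ± 5.26 FPKM in BPS-TA (SD, n = 4) and 34.6 ± 4.41 FPKM in WT kidneys (SD, n = 3). No source used here says whether reads were counted by strand, so reads of both genes may not be separable. In all, 25 of the 44 members share exonic bases with another annotated gene. The log2 fold change of Tmem55b was 0.22 (adjusted p = 0.173, limma).

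Poly(ADP-ribose) polymerases, which mark breaks and recruit repair factors, made up the other calls. Parp2 (ENSMUSG00000036023) stood at 5.96, 6.52, 5.58 and 5.93 FPKM in BPS-TA kidneys, against 4.67, 4.95 and 4.41 FPKM in WT kidneys, with a log2 fold change of 0.30 ± 0.071 (SE, adjusted p = 0.0139, limma). Parp1 (ENSMUSG00000026496), the more abundant of the pair, stood at 14.8, 13.4, 14.2 and 14.5 FPKM in BPS-TA kidneys, against 11.3, 13.3 and 11.9 FPKM in WT kidneys. Its groups were separated only by the small gap between TC-8 and WT-6, and its log2 fold change of 0.21 ± 0.070 (SE) lay just inside the threshold (adjusted p = 0.0482, limma). Xrcc1, which encodes the scaffold of single-strand break repair, averaged 10.1 ± 1.44 FPKM in BPS-TA kidneys (SD, n = 4) and 7.60 ± 1.26 FPKM in WT kidneys (SD, n = 3). Its log2 fold change of 0.36 did not pass the test (adjusted p = 0.0686, limma). TC-7, at 7.95 FPKM, lay among the WT kidneys, and without TC-7 the adjusted p was 0.0212. The glycosylase genes Ogg1 and Ung and the ligase genes Lig1 and Lig3 had log2 fold changes of 0.16 to 0.29, none past the threshold. Leaving out 1 of TC-7, TC-11, TC-12, WT-5 or WT-7 ended the call of Parp1 (adjusted p 0.0924 to 0.149), as did no filter, 1 FPKM in every kidney or no trend (0.0509 to 0.0598), and leaving out WT-7 ended that of Parp2 (0.0544).

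Promoters of Apex1, of Rad51c (the only member that was lower) and of Bard1 (a member under 1 FPKM whose groups did not overlap) are shown as RefSeq gives them for GRCm38.p6, from 250 bases before to 50 bases after the start of transcription, 5′ to 3′ on the strand of the gene. Capitals mark every match, on either strand, to letters known from cell cycle and hypoxia promoters. These were E2F sites (TTTCCCGC, TTTCGCGC, TTTGCCGC or TTTGGCGC), cell cycle homology regions (TTTGAA or TTCGAA) and the core of hypoxia response elements (ACGTG or GCGTG). Matches on both strands overlap where ACGTG is preceded by C.
Apex1, chr14:50924699-50924998, plus strand: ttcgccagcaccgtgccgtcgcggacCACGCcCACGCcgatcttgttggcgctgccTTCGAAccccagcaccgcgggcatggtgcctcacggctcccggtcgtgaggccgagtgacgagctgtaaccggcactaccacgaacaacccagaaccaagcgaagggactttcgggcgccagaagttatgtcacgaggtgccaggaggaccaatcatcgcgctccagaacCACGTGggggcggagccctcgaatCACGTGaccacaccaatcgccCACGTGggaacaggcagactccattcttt
Rad51c, chr11:87404457-87404756, minus strand: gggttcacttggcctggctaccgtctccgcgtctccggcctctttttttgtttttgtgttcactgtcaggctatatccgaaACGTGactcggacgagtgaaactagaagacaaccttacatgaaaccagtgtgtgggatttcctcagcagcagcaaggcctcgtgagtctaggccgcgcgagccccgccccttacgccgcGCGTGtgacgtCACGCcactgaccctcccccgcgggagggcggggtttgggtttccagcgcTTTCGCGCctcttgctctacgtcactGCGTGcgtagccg
Rad51c, chr11:87404905-87405204, minus strand: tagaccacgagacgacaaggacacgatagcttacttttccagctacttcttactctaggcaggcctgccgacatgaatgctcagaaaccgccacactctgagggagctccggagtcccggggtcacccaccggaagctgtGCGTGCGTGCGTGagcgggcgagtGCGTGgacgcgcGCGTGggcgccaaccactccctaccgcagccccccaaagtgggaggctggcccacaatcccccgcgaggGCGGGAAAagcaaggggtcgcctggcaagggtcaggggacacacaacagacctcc
Bard1, chr1:71102923-71103222, minus strand: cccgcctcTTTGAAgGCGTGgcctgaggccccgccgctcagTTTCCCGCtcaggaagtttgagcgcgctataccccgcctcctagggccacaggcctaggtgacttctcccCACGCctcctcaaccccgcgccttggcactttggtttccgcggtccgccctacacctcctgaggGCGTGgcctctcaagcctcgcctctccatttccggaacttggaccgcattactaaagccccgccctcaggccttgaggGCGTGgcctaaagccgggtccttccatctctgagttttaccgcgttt
The Apex1 promoter held 3 copies of CACGTG within 50 bases of the start and no E2F match, whereas each of the Rad51c starts and the Bard1 promoter held 1 E2F match. Among 41 promoters found for 36 members, 22.0% held an E2F match (Bard1, Brca2, Chek2, Lig1, Mdc1, Msh6, Rad51c and Xrcc6), against 3.64% of the promoters of all tested genes and 2.26% of all promoters. Of those 8 genes Rad51c was called lower, Bard1 was under the filter, and the others did not pass the test. A cell cycle homology match was present in 7.32% of the members' promoters (Apex1, Atr and Bard1), against 13.3% for tested genes and 19.2% for all promoters. Hypoxia core letters were in 68.3%, against 60.9% and 43.8%. Such matches are a description of these letters and not of binding.

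In mismatch repair, 1 of 2 members was called, against 35.0% of all tested genes. Pms2 (ENSMUSG00000079109), which encodes a subunit of the endonuclease that acts on mismatched strands, stood at 3.41, 2.70, 3.62 and 2.83 FPKM in BPS-TA kidneys, against 2.00, 1.27 and 2.15 FPKM in WT kidneys. All BPS-TA kidneys lay above all WT kidneys, with a log2 fold change of 0.57 ± 0.14 (SE, adjusted p = 0.0140, limma). Some of its exonic bases are also those of Gm42421 (394 bases) and Rsph10b (85 bases) on the same strand, where reads cannot be told apart. Msh6, which encodes a mismatch recognition subunit, averaged 5.79 ± 0.613 FPKM in BPS-TA (SD, n = 4) and 4.99 ± 0.309 FPKM in WT kidneys (SD, n = 3). Its log2 fold change of 0.18 did not pass the test (adjusted p = 0.147, limma).

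In nucleotide excision repair, 1 of 6 tested members was called, against 35.0% of all tested genes. Xpc (ENSMUSG00000030094), which encodes a sensor of distorted DNA, stood at 14.6, 15.1, 13.2 and 14.1 FPKM in BPS-TA kidneys, against 11.3, 10.9 and 10.3 FPKM in WT kidneys. The groups were well separated for its small spread, and the log2 fold change was 0.37 ± 0.064 (SE, adjusted p = 0.00389, limma). No annotated gene shares exonic bases with Xpc. Ercc2, a helicase gene of the transcription factor TFIIH, stood at 9.86, 9.44, 5.63 and 6.03 FPKM in BPS-TA kidneys, against 5.06, 6.49 and 5.91 FPKM in WT kidneys. TC-7 and TC-8 were high while TC-11 and TC-12 lay in the WT range, and the log2 fold change of 0.33 did not pass the test (adjusted p = 0.212, limma). Ercc2 shares 42.7% of its exonic bases with other annotated genes, so reads may not be separable. Of these bases 744 lie opposite Klc3, which was higher (log2 fold change 0.45, adjusted p = 0.00580, limma). Such shares were 25.1% for Lig3 and 23.8% for Ddb2. Ddb1 did not overlap between groups but differed little (log2 fold change 0.12, adjusted p = 0.125, limma). Xpa, Ercc1 and Ddb2, genes of a scaffold, a nuclease subunit and a damage sensor, had log2 fold changes of 0.040, 0.062 and 0.20 with overlapping groups.

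Of 8 tested members of homologous recombination, 1 was called higher and 1 lower (25%), against 35.0% called among all tested genes. Rad51c (ENSMUSG00000007646), a gene of homologous recombination, stood at 1.37, 1.35, 1.15 and 1.41 FPKM in BPS-TA kidneys, against 1.93, 2.01 and 2.13 FPKM in WT kidneys. Every BPS-TA kidney was below every WT kidney, and Rad51c fell by 0.38 ± 0.077 on the log2 scale (SE, adjusted p = 0.00697, limma). It shares no exonic bases with another annotated gene. Xrcc3 (ENSMUSG00000021287), whose protein forms a complex with that of Rad51c, moved the other way. It stood at 2.67, 2.95, 2.39 and 2.07 FPKM in BPS-TA kidneys, against 1.82, 1.45 and 1.13 FPKM in WT kidneys, without overlap (log2 fold change 0.52 ± 0.12 SE, adjusted p = 0.0145, limma). Without WT-7 its adjusted p was 0.0531. Xrcc2, a further recombination gene, averaged 2.13 ± 0.120 FPKM in BPS-TA kidneys (SD, n = 4) and 1.92 ± 0.0617 FPKM in WT kidneys (SD, n = 3). These values did not overlap, but the log2 fold change of 0.10 did not pass the test (adjusted p = 0.290, limma).

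Brca2, a tumour suppressor gene of homologous recombination, had 2.02, 2.43, 1.37 and 2.09 FPKM in BPS-TA kidneys, against 1.20, 1.68 and 0.718 FPKM in WT kidneys. TC-11 lay within the WT range, and the log2 fold change of 0.45 did not pass the test (adjusted p = 0.0777, limma), which it did without TC-11 (0.0416) or without WT-6 (0.0435). Genes of the MRE11 complex, which binds and trims broken ends, had log2 fold changes of 0.017 (Mre11a), 0.068 (Nbn) and 0.35 (Rad50). For Rad50 a single BPS-TA kidney, TC-12, stood apart at 5.01 FPKM, while the others held 2.97 to 3.65 FPKM, against 2.26 to 3.11 FPKM in WT kidneys. Rad52, whose protein anneals single strands, had a log2 fold change of -0.044 (adjusted p = 0.814, limma).

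Of 5 non-homologous end joining members 0 passed the test in limma, with 1 (Xrcc5) at an unadjusted p under 0.05, and their median log2 fold change was 0.041. Among all tested genes 35.0% were called. Xrcc5, which encodes the larger Ku subunit that caps broken ends, stood at 22.6, 23.3, 19.3 and 19.4 FPKM in BPS-TA kidneys, against 23.0, 24.6 and 25.1 FPKM in WT kidneys. TC-8 lay inside the WT range, and the log2 fold change was -0.19 (adjusted p = 0.0996, limma). Its Ku partner Xrcc6 had a log2 fold change of 0.10 (adjusted p = 0.416, limma). For Prkdc, the kinase that Ku recruits, Xrcc4 and Lig4, the partners that seal the ends, log2 fold changes were 0.041, 0.0014 and 0.075. Lig4 varied little in BPS-TA kidneys, at 3.56 to 3.63 FPKM, against 2.99 to 3.75 FPKM in WT kidneys.

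Among checkpoint members, 1 of 4 tested was called, against 35.0% of all tested genes. Atr (ENSMUSG00000032409), the kinase gene for exposed single-stranded DNA, stood at 6.31, 7.71, 8.16 and 7.66 FPKM in BPS-TA kidneys, against 4.77, 6.10 and 4.99 FPKM in WT kidneys. The groups did not overlap, although TC-7 and WT-6 were close, and the log2 fold change was 0.43 ± 0.10 (SE, adjusted p = 0.0153, limma). Without WT-5 or WT-7 the adjusted p was 0.0526 and 0.0569. Atm, the kinase gene for double-strand breaks, ranged from 3.84 to 7.24 FPKM in BPS-TA kidneys and from 4.10 to 5.77 FPKM in WT kidneys (log2 fold change 0.12, adjusted p = 0.641, limma). Chek2, a kinase downstream of ATM, had a log2 fold change of 0.20 (adjusted p = 0.257, limma). The partner of ATR, Atrip, had one of 0.019 (adjusted p = 0.934, limma), but its level is uncertain. Its FPKM times annotated length, divided by the authors' mean scaled count of 2.61, was 203 times the median of this ratio over genes (5th to 95th percentile 0.473 to 3.89), and 1147 of its exonic bases are also those of Trex1 on the same strand. Chek1, the kinase downstream of ATR, was below 1 FPKM in every kidney, at 0.868, 0.941, 0.907 and 0.789 FPKM in BPS-TA kidneys, against 0.858, 0.553 and 0.338 FPKM in WT kidneys (exact two-sided permutation p = 0.0571). Of the chromatin genes that act beside a break (Trp53bp1, Mdc1 and H2afx), 0 of 3 were called at an adjusted p under 0.05 or had an unadjusted p under 0.05 in limma, with log2 fold changes of 0.14, 0.15 and 0.073.

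**Figure D3:**
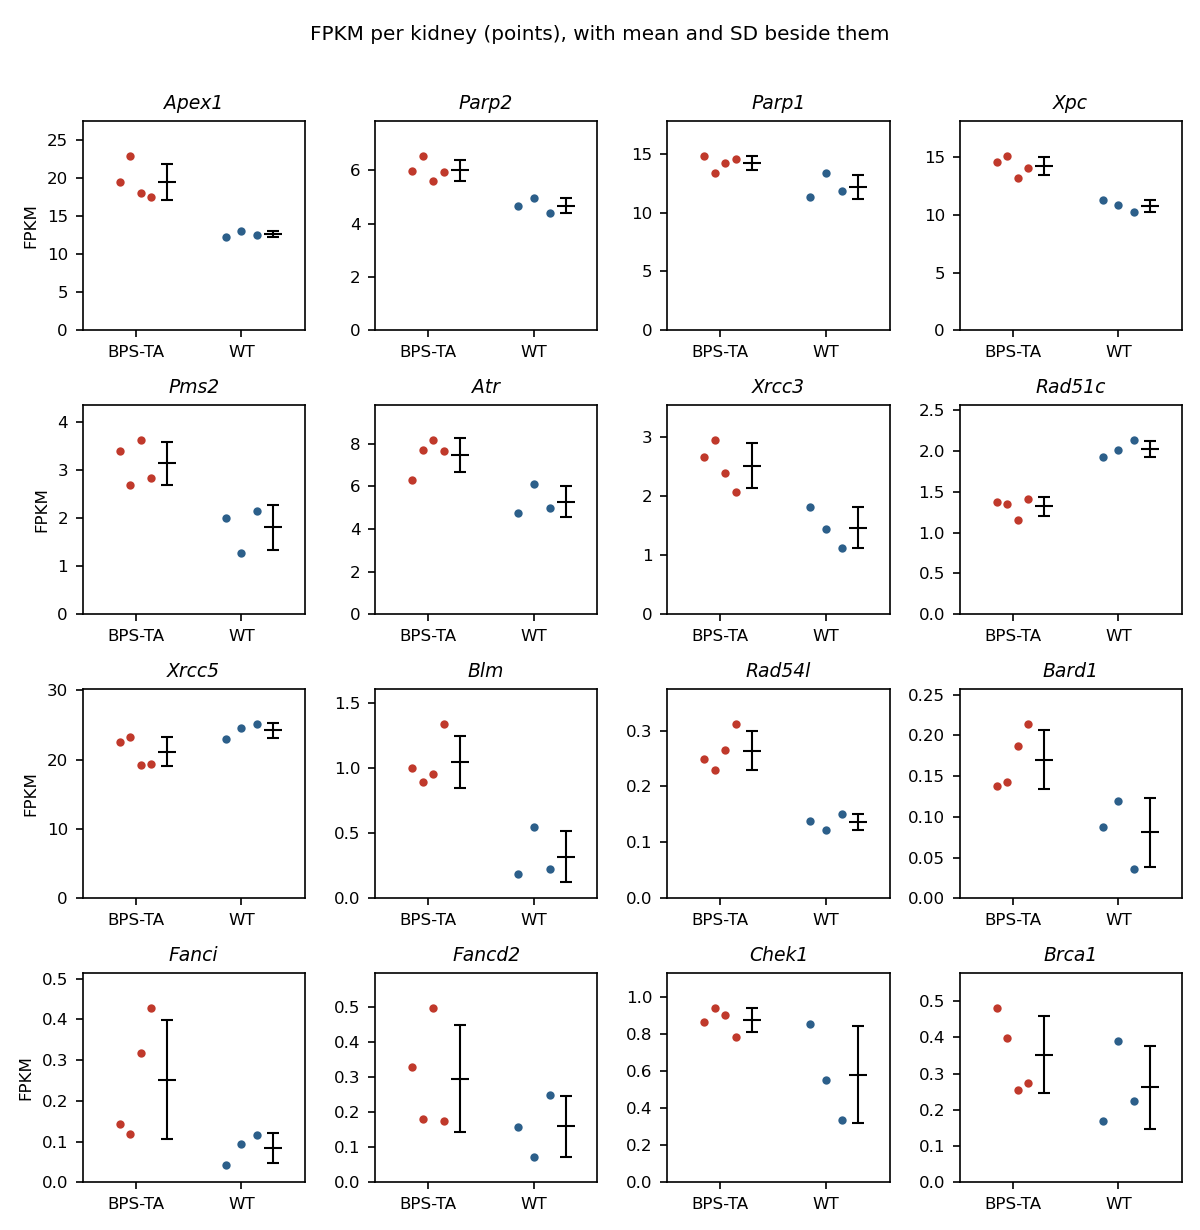
FPKM per kidney (vertical axes from 0) of 16 members, with BPS-TA kidneys (red, n = 4) to the left of WT kidneys (blue, n = 3) and mean and SD beside the points. The first 8 panels are the called members, of which Rad51c alone is lower in BPS-TA kidneys. Of the last 7, which are under the filter, Blm shows the largest gap (0.891 to 1.34 FPKM in BPS-TA, 0.187 to 0.548 FPKM in WT kidneys) and Brca1 overlaps.

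The 8 members under the filter were compared on FPKM with exact permutation, two-sided, over the 35 splits of the kidneys, which gives unadjusted p-values that cannot fall below 0.0286. Groups did not overlap for 4 of them (Blm, Rad54l, Bard1 and Fanci), all higher in BPS-TA kidneys, against 33.7% of genes under the filter with a mean of at least 0.05 FPKM (32.0% higher and 1.67% lower). Blm, a helicase gene that resolves recombination intermediates, had 1.004, 0.891, 0.954 and 1.34 FPKM in BPS-TA kidneys, against 0.187, 0.548 and 0.226 FPKM in WT kidneys (exact permutation p = 0.0286). Its mean was 3.27-fold higher in BPS-TA kidneys, the widest ratio among the members. Rad54l, which encodes a motor protein of homologous recombination, had 0.249, 0.229, 0.265 and 0.311 FPKM in BPS-TA kidneys, against 0.138, 0.122 and 0.151 FPKM in WT kidneys (exact permutation p = 0.0286). Opposite it lies Lrrc41, which shares 1184 exonic bases with Rad54l and averaged 15.6 FPKM in BPS-TA and 14.2 FPKM in WT kidneys.

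Bard1, the partner gene of Brca1, had 0.138, 0.143, 0.187 and 0.214 FPKM in BPS-TA kidneys, against 0.0879, 0.119 and 0.0357 FPKM in WT kidneys (exact permutation p = 0.0286). Fanci, a gene of the pair that is ubiquitinated at crosslinks, had 0.144, 0.119, 0.318 and 0.427 FPKM in BPS-TA kidneys, against 0.0428, 0.0939 and 0.115 FPKM in WT kidneys. TC-8 and WT-7 nearly touched (exact permutation p = 0.143), and 921 exonic bases of Fanci lie opposite Polg, which was itself higher (0.39 on the log2 scale, adjusted p = 0.0247, limma). Brca1 had 0.481, 0.399, 0.256 and 0.275 FPKM in BPS-TA kidneys, against 0.170, 0.390 and 0.226 FPKM in WT kidneys. These groups overlapped (exact permutation p = 0.314), as did those of its partner Palb2 (p = 0.514) and of Fancd2 (p = 0.229) in the same permutation test. In a fit with no filter, Blm (log2 fold change 0.64) and Rad54l (0.15) each had an adjusted p of 0.00932 (limma) and Bard1 (0.11) one of 0.0570, where 25.4% of all genes were called (21.2% higher and 4.19% lower). Depth per kidney is unknown, so counting error at these low levels could not be given.

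**Figure D4:**
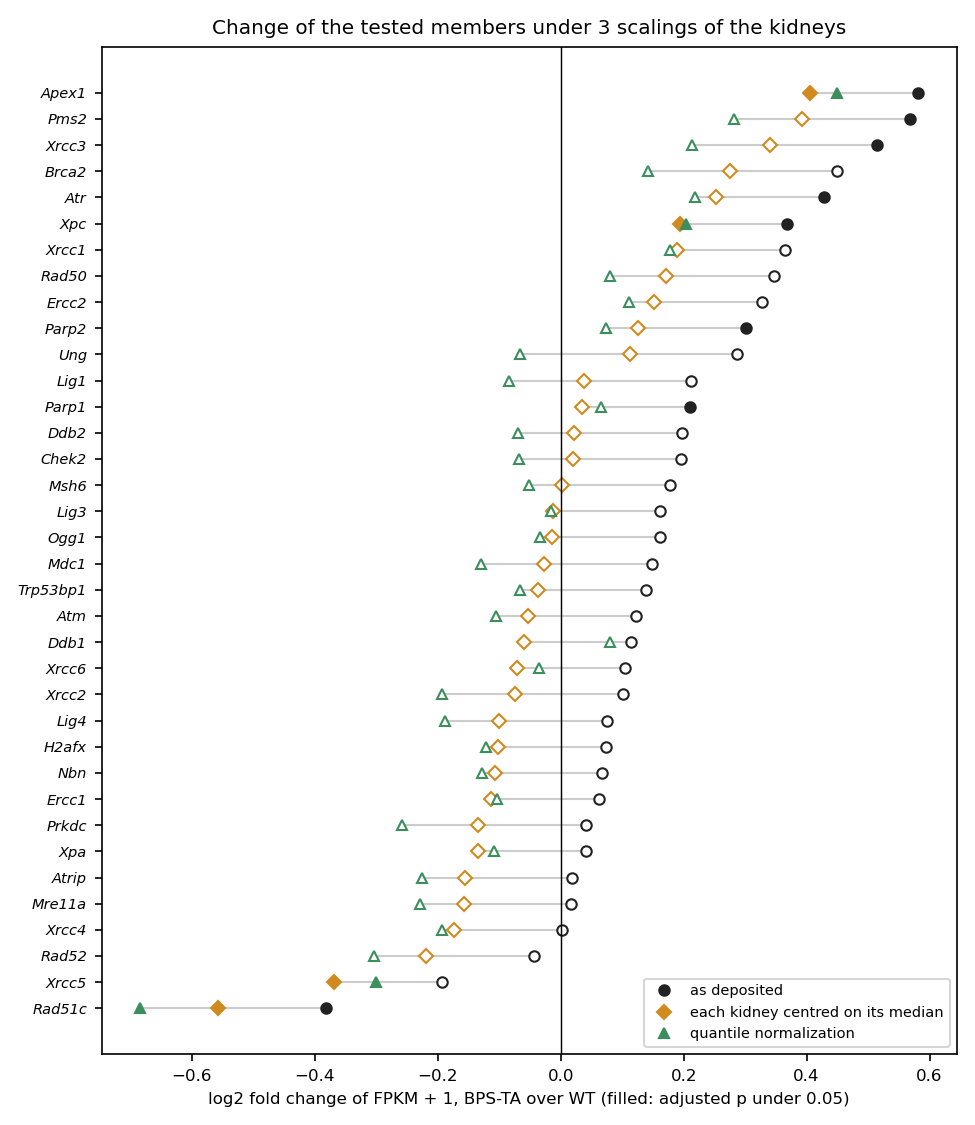
Log2 fold change of FPKM + 1 (BPS-TA over WT, horizontal axis) of the 36 tested members as deposited (circles), with each kidney centred on its median (diamonds) and after quantile normalization (triangles), filled where the adjusted p was under 0.05. Apex1, Xpc and Rad51c are filled under all 3 scalings, and Xrcc5 (-0.19 as deposited) is filled after both rescalings.

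Calls depended on how kidneys were scaled to each other. Gpx3 took 55.5% to 58.2% of summed FPKM in BPS-TA kidneys and 60.2% to 61.7% in WT kidneys, and its part in the shift of all genes was not tested. Summed FPKM was 1.47e+06 to 1.66e+06 in BPS-TA kidneys and 1.77e+06 to 1.81e+06 in WT kidneys. So large a value for 1 gene may not be a true abundance, and the unit itself is inferred. Quantile normalization moved the median of all genes from 0.12 to -0.036 and centring moved it to -0.054. Either way 2 members stayed higher (Apex1 and Xpc) and 2 were lower (Rad51c and Xrcc5), against 26.1% of all tested genes by quantiles (11.8% higher and 14.3% lower) and 33.2% by centring (12.6% higher and 20.6% lower). In numbers, all genes split into 1416 higher and 1724 lower by quantiles, 1515 higher and 2480 lower by centring, and 3425 higher and 790 lower as deposited. Apex1 had log2 fold changes of 0.45 by quantiles and 0.41 by centring, Xpc 0.20 and 0.19, and Rad51c -0.68 and -0.56. Xrcc5 passed the test at -0.30 and -0.37 (adjusted p = 0.0281 and 0.0130, limma). Pms2, Xrcc3, Atr, Parp2 and Parp1 kept a positive sign without passing the test (adjusted p 0.0553 to 0.749). Of the 28 members not called as deposited, 21 had a 95% interval inside -0.5 to 0.5 on the log2(FPKM + 1) scale. The pseudocount lowers fold changes near 1 FPKM, so this count does not bound the change in members at such levels. For Lig1 the log2 fold change was 0.21 as deposited and 0.34 with a pseudocount of 0.1 FPKM.

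Repair genes outside the list were counted in the same fit. Of 68 such genes 55 were tested, of which 9 were higher and 2 lower, with a median log2 fold change of 0.11. Among those higher, Rad18 passed the filter through BPS-TA kidneys alone. With 1 FPKM required in every kidney Rad18 was not tested, and of 53 tested genes 9 were higher and 2 lower. Of the 55, 20% were called (16.4% higher), against 35.0% of all tested genes (28.5% higher and 6.56% lower). These were not matched for level either. The largest changes among the called ones were in Rad9a, a clamp subunit gene of the ATR checkpoint (log2 fold change 0.50, adjusted p = 0.000995, limma), Mgmt, which encodes the protein that removes alkyl groups from guanine (0.48, adjusted p = 0.0112), and Fancf, a Fanconi anaemia core gene (0.44, adjusted p = 0.00968). After quantile normalization 1 was higher and 7 were lower, and after centring 2 and 7. Of all tested genes, 11.8% were higher and 14.3% lower by quantiles, and 12.6% and 20.6% by centring. Of 39 S phase and mitosis genes, 20 were tested, of which 9 were higher and 0 lower in limma (13 and 0 at an unadjusted p under 0.05, and 14 and 0 called with no filter), with a median of 0.37. The 9 are 45% of those tested, against 28.5% of all tested genes, but some passed the filter through BPS-TA kidneys alone. With 1 FPKM required in every kidney, 10 were tested and 3 were higher (Mcm4, Mcm5 and Rrm1). The 3 largest called changes, in Cdk1, Uhrf1 and Top2a, belong to genes that passed the filter through BPS-TA kidneys alone, so their values describe genes selected by the group where they were high. Cdk1, the mitotic kinase gene, averaged 1.77 ± 0.421 FPKM in BPS-TA kidneys (SD, n = 4) and 0.686 ± 0.141 FPKM in WT kidneys (SD, n = 3). Its log2 fold change was 0.71 (adjusted p = 0.00513, limma), and those of Uhrf1, which maintains DNA methylation in S phase, and Top2a, the topoisomerase gene of dividing cells, were 0.69 (adjusted p = 0.00109, limma) and 0.66 (adjusted p = 0.0204, limma). By quantiles 0 of the 20 were called in limma (2 higher and 1 lower at an unadjusted p under 0.05), and by centring 4 were higher. The largest absolute change in the list, named after its values were seen, was in Mcm6, a subunit gene of the replicative helicase, at 8.69, 9.93, 1.27 and 1.39 FPKM in BPS-TA kidneys, against 9.81, 8.97 and 8.42 FPKM in WT kidneys. TC-11 and TC-12 were low and TC-7 and TC-8 were near the WT range, and the log2 fold change of -1.04 did not pass the test (adjusted p = 0.196, limma).

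Markers of other cells moved with the same groups. All 11 tested macrophage markers were higher, with a summed level of 145 to 222 FPKM in BPS-TA kidneys and 75.1 to 86.7 FPKM in WT kidneys. Among all tested genes, 28.5% were higher and 6.56% lower. B and plasma cell markers summed to 161 to 284 FPKM in BPS-TA kidneys and 10.0 to 31.2 FPKM in WT kidneys, most of it Jchain, which was higher (log2 fold change 3.53, adjusted p = 0.000392, limma). Of the 6 markers 4 were tested and higher, but Cd79a, Cd79b and Mzb1 passed the filter through BPS-TA kidneys alone. Of 15 proximal tubule markers 10 were lower and 1 was higher, and their sum, dominated by Kap, was 49396 to 56827 FPKM in BPS-TA kidneys and 62738 to 66802 FPKM in WT kidneys. Of 7 markers of other nephron segments, 3 were higher (Aqp2, Slc12a1 and Umod) and 0 lower. Their sum was 3140 to 3770 FPKM in BPS-TA kidneys and 1929 to 2237 FPKM in WT kidneys. Endothelial markers were higher for 5 of 6 and fibroblast markers for 3 of 5, whereas 0 of 2 tested neutrophil markers and 0 of 1 tested T and NK cell marker were called (unadjusted p under 0.05 for 2 and 0), and Ly6g was listed at 0 in every kidney. After quantile normalization 10 of the 11 macrophage and 0 of the 5 fibroblast markers (2 at an unadjusted p under 0.05 in limma) were still called higher, and both neutrophil markers were lower. The part of these cells in the repair values was not tested. The targeted genes Bap1 (log2 fold change -0.030), Pbrm1 (0.0063) and Setd2 (-0.0056) did not pass the test (adjusted p 0.780 to 0.956, limma), and their transcript levels do not report small edits.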

How the data were processed

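RNA of 4 BPS-TA and 3 WT kidneys was sequenced by the authors as single reads of 51 bases. The submitters' processing notes name mm9 and DESeq 1.32, and no aligner, counting program, strand setting or annotation is given in the sources used here. One deposited table holds a value per gene and kidney whose unit is not named. These values were read as FPKM made by the authors before they were deposited, since totals differ between kidneys and values do not come in whole steps. This unit is an inference, and the large share of Gpx3 in the totals was not explained. The authors' other table holds a signal, their mean count scaled to library size, which was used for 1 check of level. The log2 fold change, standard error, test statistic and p-values of the authors' own comparison, in the same table, were not used. Columns were assigned to groups by their names, with TC read as triple cross, and they carry no replicate numbers that match the labels. The paper counts 7 WT kidneys, of which 3 were analysed here, and sequencing depth is unknown.

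log2(FPKM + 1) was fitted with limma (3.58.1, in R 4.3.3) with a mean-variance trend, no covariates and Benjamini-Hochberg adjustment over genes with at least 1 FPKM in at least 3 kidneys. 83 entries of 37 repeated gene IDs were left out. Fold changes near 1 FPKM are lowered by the pseudocount. Genes under the filter were compared by exact permutation. The fit was run on simulated data, with known changes placed only in genes at or above the median WT level. There it called 82.1% of changes of 0.5 on the log2 scale. How the fit does for genes below that level was not tested. Other steps ran in Python 3.11.15 (scipy 1.17.1, matplotlib 3.10.9, pandas 2.3.3, numpy 2.4.6). All members are accounted for. Values per kidney are given for called members, for members with groups that do not overlap and a log2 fold change of at least 0.5, and for Brca1, which the study names. Of other repair and cell cycle genes, the 3 largest called changes are named. Further values per kidney (Xrcc5, Brca2, Ercc2, Chek1 and the members under the filter without overlap) were added after seeing them. Members and lists were chosen with earlier results of these data known. Alternatives were quantile normalization, median centring, a pseudocount of 0.1 FPKM, no filter, 1 FPKM in every kidney, no trend, and each kidney left out in turn. Overlaps of exons came from GENCODE M21, and promoters from RefSeq (GRCm38.p6), with no coordinates taken from the authors' build.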

Additional observations from a re-analysis of the deposited data

How the results depend on the processing

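Apex1 and Xpc stayed higher and Rad51c stayed lower past the threshold under every alternative run. Members called higher or lower numbered 7 and 1 as reported, 2 and 2 by quantile normalization and by median centring, and 3 to 8 and 1 to 2 when 1 kidney was left out (3 higher without WT-7, 2 lower without TC-8). For all tested genes the counts were 3425 and 790, with 1416 and 1724 by quantiles and 1515 and 2480 by centring, and 2276 (without WT-7) to 3301 (without TC-8) higher and 484 (without WT-6) to 905 (without TC-8) lower with 1 kidney left out. Log2 fold changes that changed sign by quantiles were Atm -0.11, Atrip -0.23, Chek2 -0.067, Xrcc2 -0.19, Mre11a -0.23, Nbn -0.13, Xrcc4 -0.19, Xrcc6 -0.035, Lig4 -0.19, Prkdc -0.26, Lig1 -0.085, Lig3 -0.016, Ogg1 -0.034, Ung -0.067, Msh6 -0.051, Xpa -0.11, Ddb2 -0.069, Ercc1 -0.10, Trp53bp1 -0.067, Mdc1 -0.13 and H2afx -0.12. By centring they were Atm -0.053, Atrip -0.16, Xrcc2 -0.074, Mre11a -0.16, Nbn -0.11, Xrcc4 -0.17, Xrcc6 -0.071, Lig4 -0.10, Prkdc -0.13, Lig3 -0.013, Ogg1 -0.015, Xpa -0.13, Ddb1 -0.060, Ercc1 -0.11, Trp53bp1 -0.037, Mdc1 -0.027 and H2afx -0.10. With 1 kidney left out, signs changed within Atm -0.0055 to 0.27, Atrip -0.070 to 0.14, Rad52 -0.18 to 0.10, Mre11a -0.038 to 0.11, Xrcc4 -0.081 to 0.092, Xrcc6 -0.015 to 0.16, Prkdc -0.032 to 0.11, Xpa -0.047 to 0.13, Ercc1 -0.061 to 0.18 and H2afx -0.0050 to 0.11. The rescalings shift all genes by construction, and the cause of the other changes was not tested. No paired analysis was possible because the columns carry no replicate numbers that match the labels. Depth is unknown, so what counting error limits could not be given.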
